A study of Mus musculus with 12 samples.

Results

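The genes described here make sterols and fatty acids or steer their synthesis. They are 38 mouse genes chosen by symbol from a written list. The list covers 7 enzymes leading to farnesyl pyrophosphate, 11 enzymes leading on to cholesterol, 5 members of the SREBP system, 3 other SREBP targets, 6 fatty acid synthesis genes, 4 elongases and desaturases, and 2 enzymes of glycerolipid synthesis. All 38 were among the 26305 gene identifiers of the count table. Of these, 37 passed the filter on low counts and were tested among 11997 genes. Me1, which makes NADPH for fatty acid synthesis, was not tested, with 4 reads in total over the 3 WM-1119 libraries of 3 days, 6 over those of 6 days, and 1 and 4 over the DMSO libraries of 3 and 6 days.

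The libraries come from EMRK1184luc, a line of B lymphoma cells started from 1 female mouse with the Eµ-Myc transgene, which overexpresses Myc in the B lineage. All cells carry a lentiviral luciferase construct and grew in medium with fetal bovine serum. The 4 groups of 3 libraries each are WM-1119 at 5 µM for 3 days, DMSO for 3 days, WM-1119 at 5 µM for 6 days and DMSO for 6 days. WM-1119 inhibits the MYST family histone acetyltransferases KAT6A and KAT6B, and DMSO is its vehicle.

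Cholesterol synthesis starts from acetyl-CoA, passes through mevalonate and farnesyl pyrophosphate, and goes on from squalene through lanosterol. The transcription factors SREBP-1 and SREBP-2, made from Srebf1 and Srebf2, sit as precursors in the membrane of the endoplasmic reticulum. SCAP escorts them to the Golgi for cleavage when sterols are low, INSIG proteins hold SCAP back when sterols are high, and the released factors raise the transcription of the sterol and fatty acid enzymes, of Insig1 and of their own genes.

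SREBP binds sterol regulatory elements, and the factor NF-Y binds CCAAT boxes near many of them. The 250 bases before the annotated start were searched on both strands in RefSeq windows of GRCm38.p6, the mm10 build, which were given for 33 of the 38 genes. The letters searched were TCACNCCA, the longer TCACNCCAC, which contains it, and CCAAT. TCACNCCA was found in 4 of the 33 genes (12.1%) and in 365 of 9235 tested genes with a window (3.95%). TCACNCCAC was found in Hmgcs1 alone among the 33, and in 1.21% of those tested genes. CCAAT was found in 25 of the 33 (75.8%) and in 41.5% of those tested genes. The 4 stretches with TCACNCCA, of Hmgcs1, Msmo1, Srebf2 and Gpam, are printed 5′ to 3′ on the strand of the gene. These 4 genes were lower with WM-1119 at both times, as were 26 of all 37 tested genes of the set. Capitals mark TCACNCCA and CCAAT, the second also as its reverse complement ATTGG. The pair can share the letters CCA, but do not overlap in these stretches. They lie at chr13:119690174-119690261 (plus strand) for Hmgcs1, chr8:64733708-64733795 (minus strand) for Msmo1, chr15:82147067-82147154 (plus strand) for Srebf2 and chr19:55127356-55127443 (minus strand) for Gpam.
Hmgcs1: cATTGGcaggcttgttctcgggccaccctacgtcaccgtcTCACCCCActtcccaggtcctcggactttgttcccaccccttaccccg
Msmo1: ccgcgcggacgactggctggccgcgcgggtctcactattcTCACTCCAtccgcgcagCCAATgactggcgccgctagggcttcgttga
Srebf2: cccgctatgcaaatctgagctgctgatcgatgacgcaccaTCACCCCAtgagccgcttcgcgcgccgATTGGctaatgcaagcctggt
Gpam: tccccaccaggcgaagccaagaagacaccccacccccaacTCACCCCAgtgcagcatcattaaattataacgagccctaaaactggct
The match began 137 bases before the start of Hmgcs1, 177 before Msmo1, and 162 before Srebf2. For Gpam it began 165 bases before the start used for its RefSeq window, which lies inside the span given for the gene below, so the match is nearer to the end of that span. Only the Gpam stretch has no CCAAT. A match describes the sequence and is no evidence that a factor binds there.

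Library totals ran from 14736267 to 41749357 counts and were lowest in the WM-1119 libraries of 6 days. The DMSO libraries of 6 days were above all others except WM-1119 3 days replicate 2, with 28228807 counts. The lowest correlation between replicates across genes was 0.996 (Pearson, log2 CPM). CPM is the share of a library taken by a gene, scaled to a fixed total after TMM correction, and is the level given below. All 10 B cell markers listed for the check were above 1 CPM in every library. Of 8 adipocyte and 8 hepatocyte markers, 6 to 8 of each had no count in any library of a group. The 12 fibroblast markers summed to between 1.78 and 6.53 CPM in the WM-1119 libraries of 3 days, 2.61 and 4.55 CPM in DMSO of 3 days, 2.18 and 48.8 CPM in WM-1119 of 6 days, and 2.23 and 20.5 CPM in DMSO of 6 days. Col1a1 exceeded 1 CPM in 5 libraries, which are WM-1119 3 days replicate 2, WM-1119 6 days replicates 1 and 2, and DMSO 6 days replicates 1 and 2. Median log2 fold changes of the synthesis genes and of some of the other lipid lists are given below also without these 5. In bulk RNA, fewer cells that use a gene and less RNA per cell cannot be told apart.

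The set fell with WM-1119 at both times. At 3 days 26 of the 37 genes were lower (70.3%), against 12.6% of all genes tested (edgeR quasi-likelihood test, adjusted p below 0.05). At 6 days 31 were lower (83.8%), against 15.1% of all genes. None was called higher by edgeR at either time, against 11.8% of all genes at 3 days and 15.7% at 6 days. At an unadjusted p below 0.05, 1 was higher at 3 days (Tm7sf2) and 0 at 6 days, and DESeq2 and limma voom also called 0. The median log2 fold change of the 37 was -0.34 at 3 days and -0.59 at 6 days, and that of all genes was 0.00 at both times. The same 26 genes were lower at both times, which held for 9.34% of all genes. A further 5 were lower at 6 days only by the call (Acat2, Hsd17b7, Mmab, Elovl6 and Fads2), and 6 were called at neither time (Tm7sf2, Ebp, Scap, Insig2, Fasn and Acly). More than 2-fold lower and called at 6 days were 6 of the 37 (Lss, Msmo1, Fdps, Lpin1, Mvd and Cyp51), against 2.33% of all genes. With those 5 Col1a1 libraries left out, 1 library was left in each group of 6 days, and fewer of the 37 were called lower. Their median log2 fold change was then -0.348 at 3 days and -0.567 at 6 days, against -0.001 and -0.003 for all genes. Tm7sf2 went the other way (0.452 and 0.869). By role the median was -0.531 and -0.82 for mevalonate enzymes, -0.48 and -0.847 from squalene on, and -0.342 and -0.567 for the SREBP system. It was -0.214 and -0.384 for other targets and -0.206 and -0.38 for fatty acid synthesis. For elongases and desaturases it was -0.152 and -0.511, and for glycerolipid enzymes -0.74 and -0.868.

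**Figure D1:**
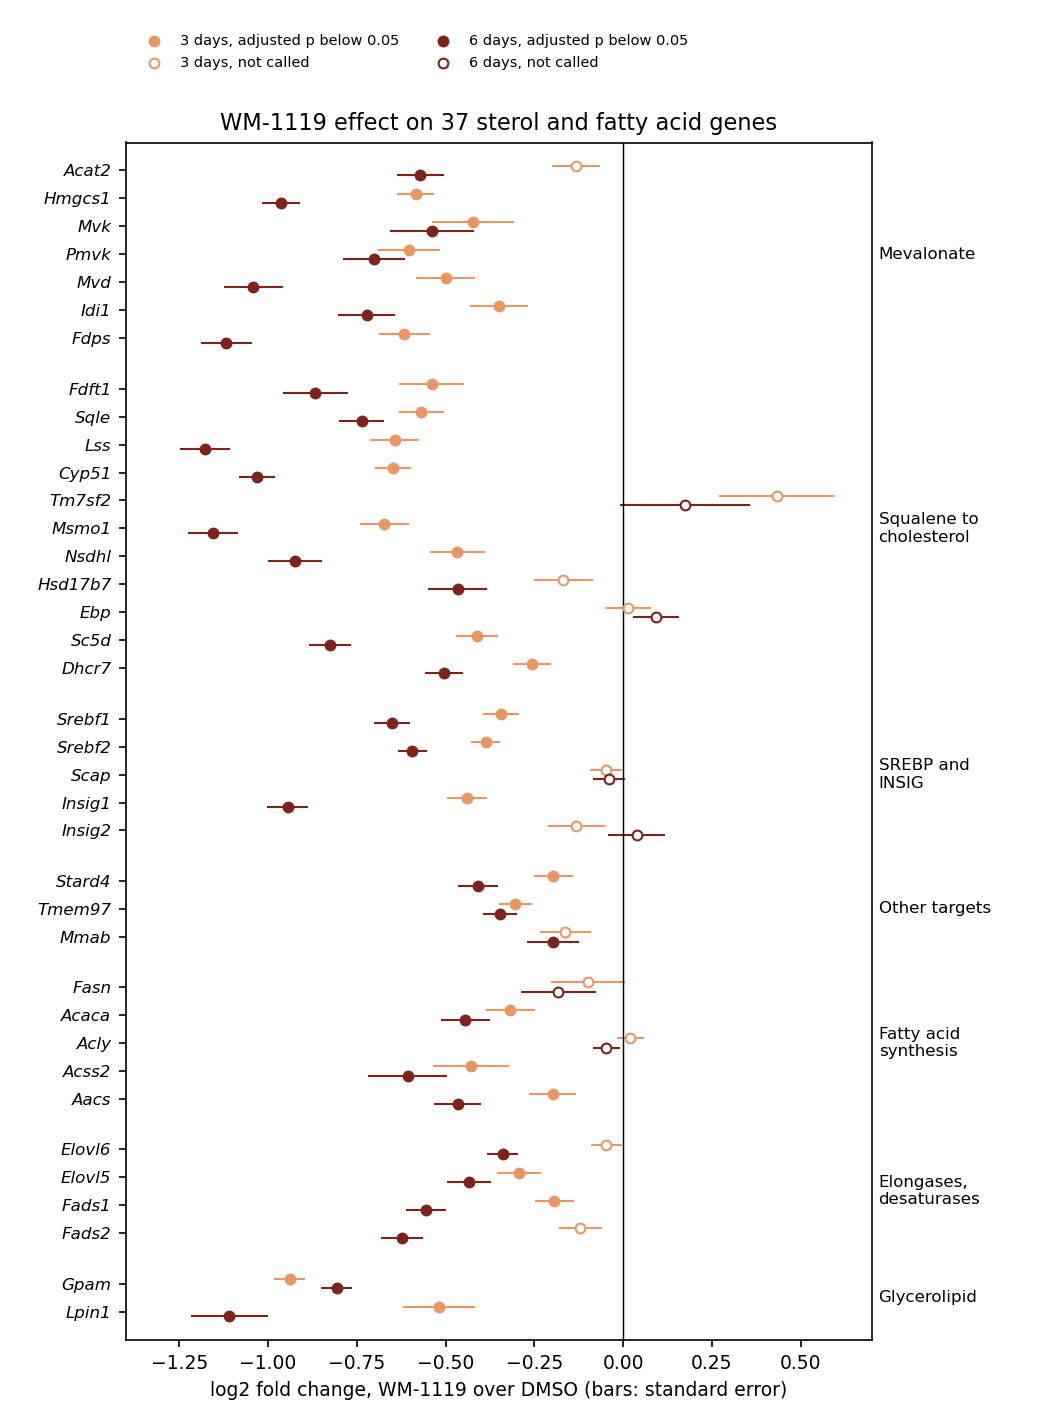
Log2 fold change of WM-1119 over DMSO for the 37 tested genes, grouped by role, with 3 days in orange, 6 days in dark red, bars for the standard error and filled points for adjusted p below 0.05. Most points lie left of 0 and most 6 day points lie left of the 3 day points, while Tm7sf2, Ebp, Scap, Insig2, Fasn and Acly have open points at both times.

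Summed over the 37 genes, reads took 3303 ± 97.6 CPM with WM-1119 and 3978 ± 126 CPM with DMSO at 3 days. At 6 days they took 3190 ± 38.8 CPM with WM-1119 and 4428 ± 39.8 CPM with DMSO (SD, n = 3 per group). These sums are weighted to the most abundant genes. Every WM-1119 library lay below every DMSO library in 26 of the 37 genes at 3 days, which held for 20.4% of all genes. At 6 days this was so in 33 of the 37, against 19.9% of all genes.

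**Figure D2:**
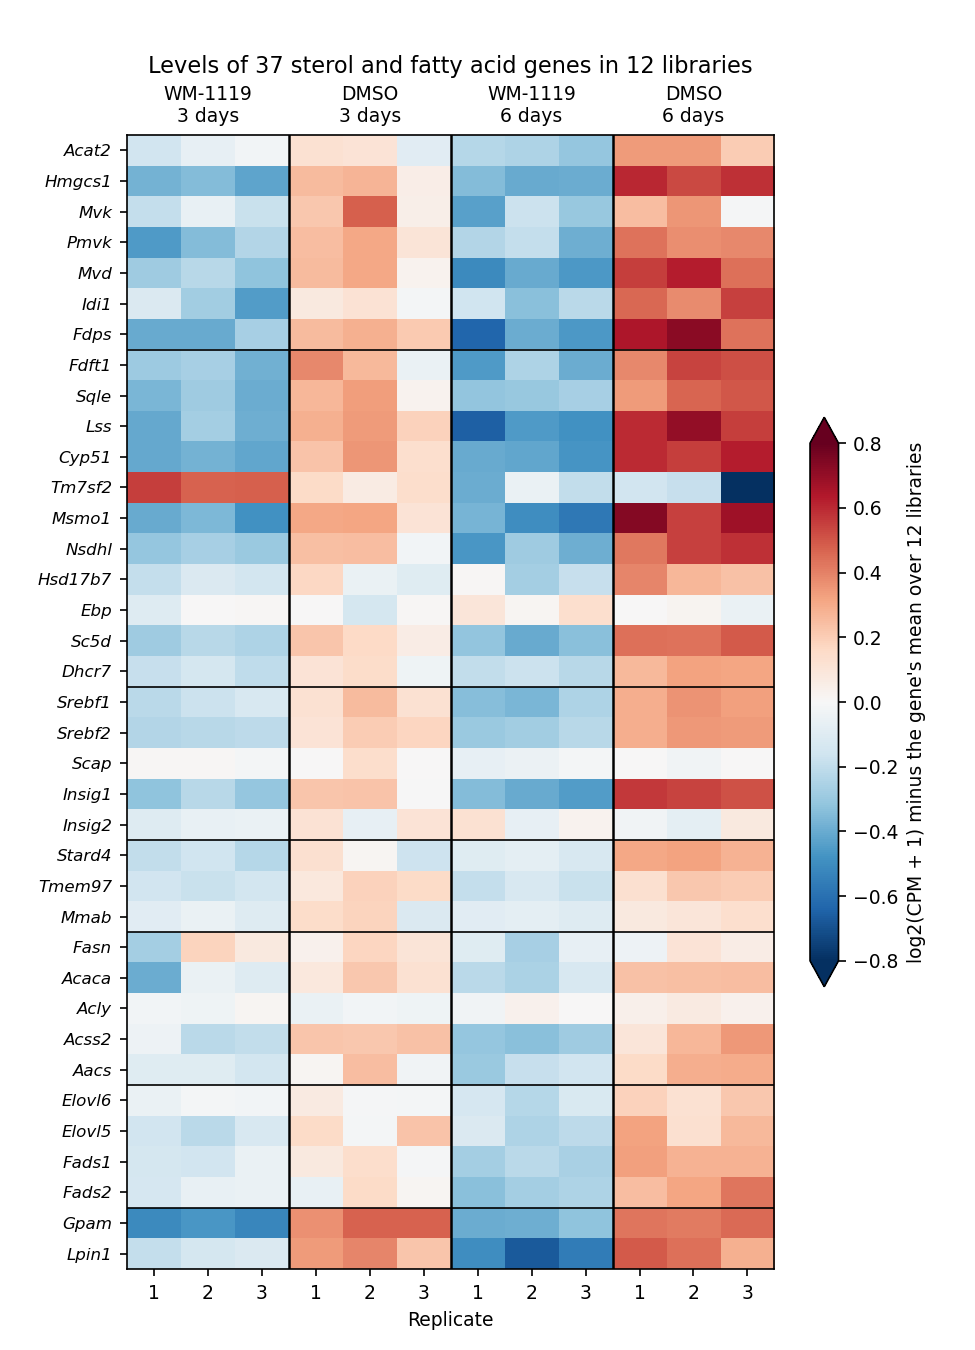
Level of each of the 37 genes in the 12 libraries, as log2(CPM + 1) minus the mean of the gene over all libraries, in columns by group and replicate, with colours that saturate at -0.8 and 0.8. The 3 DMSO libraries of 6 days stand highest in most rows, DMSO 3 days replicate 3 is paler than the other two of its group, and the 6 WM-1119 libraries stand low in most rows.

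The mevalonate enzymes fell as a group. At 3 days 6 of the 7 were lower and at 6 days all 7, with median log2 fold changes of -0.50 and -0.72. Their summed level was 246 ± 2.47 CPM with WM-1119 and 345 ± 24.6 CPM with DMSO at 3 days. At 6 days it was 234 ± 2.74 CPM with WM-1119 and 434 ± 13.3 CPM with DMSO (SD, n = 3 per group).

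Hmgcs1 (chr13:119690351-119708260) makes HMG-CoA, the precursor of mevalonate. It had 91.8, 94.0 and 89.2 CPM in the WM-1119 libraries of 3 days, against 143, 145 and 124 CPM with DMSO. At 6 days it had 93.8, 90.3 and 90.5 CPM with WM-1119, against 183, 173 and 180 CPM with DMSO. The WM-1119 libraries stayed within a narrow band at both times, below all DMSO libraries. Hmgcs1 fell by 0.58 ± 0.05 on the log2 scale at 3 days (SE, edgeR adjusted p = 3.25e-08) and by 0.96 ± 0.05 at 6 days (adjusted p = 7.3e-12), a 1.95-fold lower level.

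Fdps (chr3:89093588-89101967) makes farnesyl pyrophosphate, from which sterols, dolichol, ubiquinone and the lipid anchors of small GTPases derive. It had 45.9, 45.9 and 50.6 CPM with WM-1119 at 3 days, against 72.9, 74.3 and 70.6 CPM with DMSO. At 6 days it had 38.9, 46.0 and 44.0 CPM with WM-1119, against 95.8, 101 and 82.7 CPM with DMSO. The groups did not overlap at either time, and the DMSO libraries of 6 days were all above those of 3 days. Fdps fell by 0.62 ± 0.07 at 3 days (edgeR adjusted p = 1.75e-06) and by 1.12 ± 0.07 at 6 days (adjusted p = 1.99e-10), both log2.

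Mvd, the decarboxylase that makes isopentenyl pyrophosphate, had 18.4, 19.2 and 17.9 CPM with WM-1119 at 3 days, against 27.1, 28.3 and 23.1 CPM with DMSO. At 6 days Mvd had 15.6, 16.9 and 16.2 CPM with WM-1119, against 33.7, 35.5 and 31.0 CPM with DMSO. Here too the groups stood apart, by 0.50 ± 0.08 at 3 days and by 1.04 ± 0.08 at 6 days on the log2 scale (lower with WM-1119, edgeR adjusted p = 8.52e-05 and 2.17e-09). The mevalonate kinase Mvk and the phosphomevalonate kinase Pmvk act just before it. Mvk had log2 fold changes of -0.42 at 3 days and -0.54 at 6 days, and Pmvk of -0.60 and -0.70, all called. The call of Mvk at 3 days was lost without DMSO 3 days replicate 2 (adjusted p = 0.0762). At 6 days it was lost without the 5 libraries with Col1a1 (adjusted p = 0.328). The isomerase Idi1 had values of -0.35 and -0.72, both called. Acat2, the cytosolic thiolase of the first step, was called at 6 days (-0.57, adjusted p = 8.13e-07) and not at 3 days (-0.13, adjusted p = 0.162). Its close paralog Acat3 lies next to it, so the reads of the pair could be mixed.

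From squalene to cholesterol, 8 of 11 enzymes were lower at 3 days and 9 at 6 days, with median log2 fold changes of -0.47 and -0.83. Lss, which folds squalene epoxide into lanosterol, had the most negative fold change of the 37 at 6 days. It had 27.4, 30.1 and 27.7 CPM with WM-1119 at 3 days, against 44.9, 46.7 and 41.8 CPM with DMSO. At 6 days it had 22.9, 26.5 and 25.9 CPM with WM-1119, against 55.8, 60.2 and 54.2 CPM with DMSO. Each WM-1119 value of 6 days was under each one of 3 days, and each DMSO value of 6 days was above each one of 3 days. Lss fell by 0.64 ± 0.07 at 3 days (edgeR adjusted p = 3.52e-07) and by 1.18 ± 0.07 at 6 days (adjusted p = 2.22e-11), a 2.26-fold lower level.

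Cyp51 (chr5:4080674-4104697), the lanosterol demethylase, had 97.2, 99.4 and 97.1 CPM with WM-1119 at 3 days, against 152, 166 and 142 CPM with DMSO. At 6 days Cyp51 had 97.8, 97.0 and 93.0 CPM with WM-1119, against 196, 190 and 201 CPM with DMSO. The WM-1119 levels of the 2 times overlapped, and the DMSO levels did not. Cyp51 fell by 0.65 ± 0.05 at 3 days (edgeR adjusted p = 4.39e-09) and by 1.03 ± 0.05 at 6 days (adjusted p = 1.91e-12) on the log2 scale.

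Msmo1 (chr8:64718123-64733578), which removes the methyl groups at the next steps, had 41.9, 43.2 and 39.5 CPM with WM-1119 at 3 days, against 69.0, 69.4 and 60.0 CPM with DMSO. At 6 days Msmo1 had 42.7, 39.1 and 37.0 CPM with WM-1119, against 93.2, 81.5 and 89.4 CPM with DMSO. Its pattern was that of Cyp51, a flat treated level below a DMSO level that was higher at 6 days. Msmo1 fell by 0.67 ± 0.07 at 3 days (edgeR adjusted p = 2.11e-07) and by 1.15 ± 0.07 at 6 days (adjusted p = 3.03e-11). Along the same route the squalene synthase Fdft1 had log2 fold changes of -0.54 and -0.87, the squalene epoxidase Sqle -0.57 and -0.74, the demethylating dehydrogenase Nsdhl -0.47 and -0.92, the desaturase Sc5d -0.41 and -0.83, and the last reductase Dhcr7 -0.26 and -0.50, at 3 and 6 days, all called. The ketoreductase Hsd17b7 was called at 6 days (-0.47, adjusted p = 0.000169) and not at 3 days (-0.17, adjusted p = 0.163).

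A pair of enzymes of this route was called at neither time. The isomerase Ebp had 31.1, 33.5 and 33.7 CPM with WM-1119 at 3 days and 33.5, 30.2 and 33.7 CPM with DMSO. At 6 days Ebp had 35.9, 33.8 and 36.9 CPM with WM-1119 and 33.5, 34.0 and 32.2 CPM with DMSO, so its groups overlapped at both times (edgeR adjusted p = 0.899 and 0.299). The sterol reductase Tm7sf2 had 8.81, 8.27 and 8.29 CPM with WM-1119 at 3 days, all above the 6.41, 5.99 and 6.36 CPM with DMSO. Its log2 fold change of 0.43 ± 0.16 missed the threshold at 3 days (edgeR adjusted p = 0.0589), and at 6 days the groups overlapped (0.18 ± 0.18, adjusted p = 0.511). Without the 5 libraries with Col1a1 it was called higher at 6 days (0.87, adjusted p = 0.0403), with 1 library left in each group of 6 days. At 3 days it was called higher with no filter on low counts, with all libraries thinned to 1 total, without those 5 libraries, with only the 6 libraries of that time fitted, and without DMSO 6 days replicate 1 (adjusted p = 0.0413) or replicate 3 (adjusted p = 0.00645). Tm7sf2 overlaps Vps51 on the same strand, and Cyp51, Fdft1 and Srebf1 overlap Akap9, Ctsb and Rai1 on the other strand. Mvd, Fdps, Acaca and Acss2 also overlap annotated genes. The kit marks the strand, but no source used here gives the strand setting of the counting, so reads in these overlaps may be assigned to either gene.

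Of the 5 members of the SREBP system, 3 were lower at both times. Srebf2 (chr15:82147269-82205379), which encodes the factor that drives the sterol enzymes, had 273, 276 and 278 CPM with WM-1119 at 3 days, against 348, 371 and 364 CPM with DMSO. At 6 days Srebf2 had 262, 265 and 276 CPM with WM-1119, against 393, 410 and 408 CPM with DMSO. The groups were well apart, by 0.39 ± 0.04 at 3 days and 0.59 ± 0.04 at 6 days on the log2 scale (lower with WM-1119, edgeR adjusted p = 3.29e-07 and 2.63e-10). Srebf1 (chr11:60199084-60224186), whose products drive the fatty acid enzymes, had 88.8, 91.3 and 94.1 CPM with WM-1119 at 3 days, against 112, 123 and 112 CPM with DMSO. At 6 days Srebf1 had 81.2, 79.9 and 86.6 CPM with WM-1119, against 126, 133 and 130 CPM with DMSO. Srebf1 fell by 0.34 ± 0.05 at 3 days and by 0.65 ± 0.05 at 6 days (log2, edgeR adjusted p = 2.01e-05 and 1.35e-09). Gene counts do not separate its isoforms SREBP-1a and SREBP-1c.

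The INSIG genes differed from each other. Insig1 (chr5:28071412-28078662), itself an SREBP target, had 78.8, 84.6 and 79.6 CPM with WM-1119 at 3 days, against 115, 116 and 98.5 CPM with DMSO. At 6 days Insig1 had 77.4, 74.5 and 72.3 CPM with WM-1119, against 147, 144 and 141 CPM with DMSO. The groups did not overlap, and DMSO 3 days replicate 3 was the lowest of the DMSO libraries. Insig1 fell by 0.44 ± 0.06 at 3 days (edgeR adjusted p = 4.4e-06) and by 0.94 ± 0.06 at 6 days (adjusted p = 3.03e-11), a 1.92-fold lower level. Insig2 (chr1:121304353-121332662), whose product holds back SCAP in the same way, had 18.2, 18.8 and 18.9 CPM with WM-1119 at 3 days and 21.4, 18.7 and 21.2 CPM with DMSO. At 6 days Insig2 had 21.4, 18.7 and 20.1 CPM with WM-1119 and 19.2, 18.6 and 20.8 CPM with DMSO. Its groups overlapped at both times (log2 fold change -0.13 ± 0.08, edgeR adjusted p = 0.258, and 0.04 ± 0.08, adjusted p = 0.753). The difference between the 2 genes was not tested. Scap, the escort, had 177, 177 and 174 CPM with WM-1119 and 176, 194 and 176 CPM with DMSO at 3 days, and was called at neither time (-0.05, adjusted p = 0.477, and -0.04, adjusted p = 0.555).

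The 3 other targets had smaller falls. Tmem97, which encodes a sterol-responsive membrane protein, had 82.1, 80.7 and 82.3 CPM with WM-1119 at 3 days, against 96.9, 104 and 102 CPM with DMSO. At 6 days Tmem97 had 80.0, 83.4 and 80.7 CPM with WM-1119, against 99.7, 106 and 105 CPM with DMSO. It was thus about the same distance below DMSO at both times, by 0.30 at 3 days and 0.35 at 6 days on the log2 scale (edgeR adjusted p = 4.41e-05 and 5.44e-06). Stard4, which carries cholesterol between membranes, had 98.8, 101 and 96.6 CPM with WM-1119 at 3 days, against 124, 115 and 101 CPM with DMSO, so the groups overlapped there. At 6 days Stard4 had 106, 108 and 104 CPM with WM-1119, against 141, 142 and 138 CPM with DMSO. Its fold change was -0.20 at 3 days (adjusted p = 0.013) and -0.41 at 6 days (adjusted p = 6.2e-06, edgeR). The 3 day call of Stard4 was lost without WM-1119 3 days replicate 3 (adjusted p = 0.0581) or DMSO 3 days replicate 1 (adjusted p = 0.124). Mmab, a cobalamin adenosyltransferase gene that shares its promoter region with Mvk, had 27.2, 27.4 and 26.9 CPM with WM-1119 at 6 days, against 30.6, 31.1 and 31.9 CPM with DMSO. This fall of 0.20 ± 0.07 (edgeR adjusted p = 0.0425) was lost without any 1 of the 6 libraries of 6 days, and without WM-1119 3 days replicate 2 or replicate 3. The adjusted p was then 0.0506 to 0.111. The call was also lost with DESeq2 (adjusted p = 0.0598), limma voom (0.0505) and upper-quartile scaling (edgeR, 0.0671). It was lost without the 5 libraries with Col1a1 as well (log2 fold change -0.246). At 3 days Mmab was not called (-0.16, adjusted p = 0.11).

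Among the fatty acid synthesis genes, 3 of the 5 tested were lower at each time, and the most abundant were not called. Acaca, which encodes the acetyl-CoA carboxylase that commits carbon to fatty acids, had 62.1, 79.3 and 76.4 CPM with WM-1119 at 3 days, against 87.1, 95.4 and 89.4 CPM with DMSO. At 6 days Acaca had 70.7, 68.8 and 75.2 CPM with WM-1119, against 96.7, 97.4 and 97.8 CPM with DMSO. All treated libraries were below all controls, with log2 fold changes of -0.32 ± 0.07 at 3 days and -0.44 ± 0.07 at 6 days (edgeR adjusted p = 0.00187 and 4.82e-05). Acss2, which turns acetate into acetyl-CoA, had 7.89, 6.88 and 6.98 CPM with WM-1119 at 3 days, against 9.71, 9.66 and 9.76 CPM with DMSO. At 6 days Acss2 had 6.41, 6.28 and 6.53 CPM with WM-1119, against 8.79, 10.0 and 10.7 CPM with DMSO. Acss2 fell by 0.43 ± 0.11 and 0.61 ± 0.11 on the log2 scale (edgeR adjusted p = 0.00524 at 3 days and 0.000194 at 6 days), and the 3 day call was lost with all libraries thinned to 1 total (adjusted p = 0.102).

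Aacs, which activates acetoacetate for lipid synthesis, had 65.8, 65.8 and 63.5 CPM with WM-1119 at 3 days, against 71.2, 83.7 and 68.8 CPM with DMSO. At 6 days Aacs had 56.9, 61.6 and 63.1 CPM with WM-1119, against 78.4, 86.1 and 86.4 CPM with DMSO. The gap was narrow at 3 days and wide at 6 days, with log2 fold changes of -0.20 ± 0.07 (edgeR adjusted p = 0.0325) and -0.46 ± 0.07 (adjusted p = 1.14e-05). Its 3 day call was lost without any 1 of the 3 WM-1119 libraries of 3 days (adjusted p = 0.0575, 0.0716 and 0.108) and without DMSO 3 days replicate 2 (adjusted p = 0.224). The call was also lost with limma voom (adjusted p = 0.051) and with upper-quartile scaling (edgeR, 0.059). It was lost without the 5 libraries with Col1a1 as well (log2 fold change -0.206). Fasn, the fatty acid synthase, had 346, 474 and 442 CPM with WM-1119 at 3 days and 430, 471 and 451 CPM with DMSO. At 6 days Fasn had 392, 349 and 401 CPM with WM-1119 and 407, 453 and 437 CPM with DMSO. The 3 treated libraries of 6 days were below the controls, and the WM-1119 libraries of 3 days differed widely. The fold changes of -0.10 ± 0.10 and -0.18 ± 0.10 were not called (edgeR adjusted p = 0.555 and 0.226). At 6 days Fasn was called lower with only the libraries of that time fitted (edgeR adjusted p = 0.0286). It was also called lower there without WM-1119 3 days replicate 1 (adjusted p = 0.0152). Acly, which makes cytosolic acetyl-CoA from citrate, had 552, 548 and 568 CPM with WM-1119 and 541, 554 and 549 CPM with DMSO at 3 days. At 6 days Acly had 552, 575 and 563 CPM with WM-1119 and 578, 592 and 576 CPM with DMSO, and it was called at neither time (0.02, adjusted p = 0.741, and -0.05, adjusted p = 0.382).

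Elongases and desaturases were lower mainly at 6 days, with 2 of 4 called at 3 days and 4 of 4 at 6 days. Fads2 (chr19:10062765-10101503), the first desaturase on the way to long polyunsaturated fatty acids, had 69.3, 73.3 and 73.6 CPM with WM-1119 at 3 days, and 73.2, 84.8 and 77.03 CPM with DMSO. At 6 days Fads2 had 60.4, 62.9 and 64.1 CPM with WM-1119, against 90.5, 95.1 and 103 CPM with DMSO. The groups overlapped at 3 days (-0.12 ± 0.06, edgeR adjusted p = 0.16) and stood far apart at 6 days (-0.62 ± 0.06, adjusted p = 4.82e-08). Fads1, the second desaturase, had 45.5, 45.0 and 48.2 CPM with WM-1119 at 3 days, against 53.0, 55.5 and 49.8 CPM with DMSO. At 6 days Fads1 had 41.3, 43.0 and 41.9 CPM with WM-1119, against 63.2, 61.1 and 61.1 CPM with DMSO. Its log2 fold changes were -0.19 (adjusted p = 0.0136) at 3 days and -0.56 ± 0.06 (adjusted p = 8.16e-08) at 6 days. The 3 day call of Fads1 was lost without WM-1119 3 days replicate 2 (adjusted p = 0.0702) or DMSO 3 days replicate 2 (adjusted p = 0.0622). It was also lost without the 5 libraries with Col1a1 (log2 fold change -0.173).

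Elovl5, which lengthens polyunsaturated fatty acids, had 107, 103 and 109 CPM with WM-1119 at 3 days, against 133, 118 and 140 CPM with DMSO. At 6 days Elovl5 had 110, 100 and 103 CPM with WM-1119, against 150, 130 and 143 CPM with DMSO. It fell by 0.29 at 3 days and by 0.43 at 6 days on the log2 scale (edgeR adjusted p = 0.00132 and 1.34e-05), with no overlap of the groups. Elovl6, which lengthens saturated fatty acids, was called at 6 days (-0.34 ± 0.04, adjusted p = 3.49e-06) and not at 3 days (-0.05, adjusted p = 0.488).

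Both glycerolipid enzymes were lower at both times. Gpam (chr19:55067635-55127319), the mitochondrial acyltransferase of the first step of glycerolipid synthesis, had 112, 115 and 111 CPM with WM-1119 at 3 days, against 206, 222 and 221 CPM with DMSO. At 6 days Gpam had 121, 122 and 127 CPM with WM-1119, against 214, 213 and 219 CPM with DMSO. The control level was the same at both times within the spread of the libraries, and the treated level was far below it. Gpam had the most negative fold change of the 37 at 3 days, -0.94 ± 0.04 on the log2 scale (edgeR adjusted p = 2.32e-12), and -0.81 ± 0.04 at 6 days (adjusted p = 7.3e-12), with no call for the difference (0.13, adjusted p = 0.593). Lpin1, the phosphatidate phosphatase of a later step, had 7.57, 7.89 and 8.03 CPM with WM-1119 at 3 days, against 11.4, 11.8 and 10.4 CPM with DMSO. At 6 days Lpin1 had 5.93, 5.15 and 5.65 CPM with WM-1119, against 12.7, 12.3 and 10.9 CPM with DMSO. Its treated level was lower at 6 than at 3 days, and its log2 fold change was -0.52 ± 0.10 at 3 days and -1.11 ± 0.11 at 6 days (edgeR adjusted p = 0.000633 and 5.19e-08).

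The effect at 6 days was set against that at 3 days in 1 test. The fold change was more negative at 6 days in 33 of the 37 genes, against 48.8% of all genes, with no test of that count. The difference itself was called for 13 of the 37 (35.1%), all more negative at 6 days, against 0.325% of all genes. None was called less negative by edgeR, DESeq2 or limma voom, against 0.4% of all genes, and 1 had an unadjusted p below 0.05 (Gpam, by edgeR). They are Acat2, Hmgcs1, Mvd, Fdps, Lss, Cyp51, Msmo1, Sc5d, Insig1, Srebf1, Elovl6, Fads1 and Fads2. The smallest adjusted p were those of Insig1 (difference -0.50 ± 0.08 on the log2 scale, edgeR adjusted p = 0.00233), Fads2 (-0.50 ± 0.09, adjusted p = 0.00404) and Lss (-0.53 ± 0.10, adjusted p = 0.00688).

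The levels behind this difference moved mostly in DMSO. At 6 against 3 days, 14 of the 37 genes were called higher in DMSO (37.8%), against 0.358% of all genes, and the median log2 change of the 37 was 0.18. None was called lower by edgeR, DESeq2 or limma voom, against 0.45% of all genes, and 1 was lower at an unadjusted p below 0.05 (Tm7sf2). In the fit without the 5 Col1a1 libraries, 8 were called higher and 1, Tm7sf2, lower (-1.24, adjusted p = 0.000883, against -0.56, adjusted p = 0.143, with all libraries). In WM-1119, 2 of the 37 were called lower at 6 against 3 days, Tm7sf2 (-0.82, edgeR adjusted p = 0.00803) and Lpin1 (-0.49, adjusted p = 0.0135), against 3.29% of all genes. None was called higher there by edgeR, DESeq2 or limma voom, against 2.33% of all genes, 1 had an unadjusted p below 0.05 (Gpam), and the median log2 change was -0.06. For Hmgcs1 the change between the times was 0.38 ± 0.05 in DMSO (edgeR adjusted p = 0.000668) and 0.00 in WM-1119 (adjusted p = 0.986). For Insig1 it was 0.39 ± 0.06 in DMSO (adjusted p = 0.000771) and -0.12 in WM-1119 (adjusted p = 0.24). Cyp51 had 0.35 ± 0.05 in DMSO (adjusted p = 0.00075) and -0.03 in WM-1119. Fads2 had 0.30 in DMSO (adjusted p = 0.0154) and -0.21 in WM-1119 (adjusted p = 0.0513). Its DMSO call was lost without DMSO 3 days replicate 1 (edgeR adjusted p = 0.105) or replicate 3 (0.0542), or without DMSO 6 days replicate 3 (0.0783). It was also lost with only the groups compared fitted (0.0567).

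**Figure D3:**
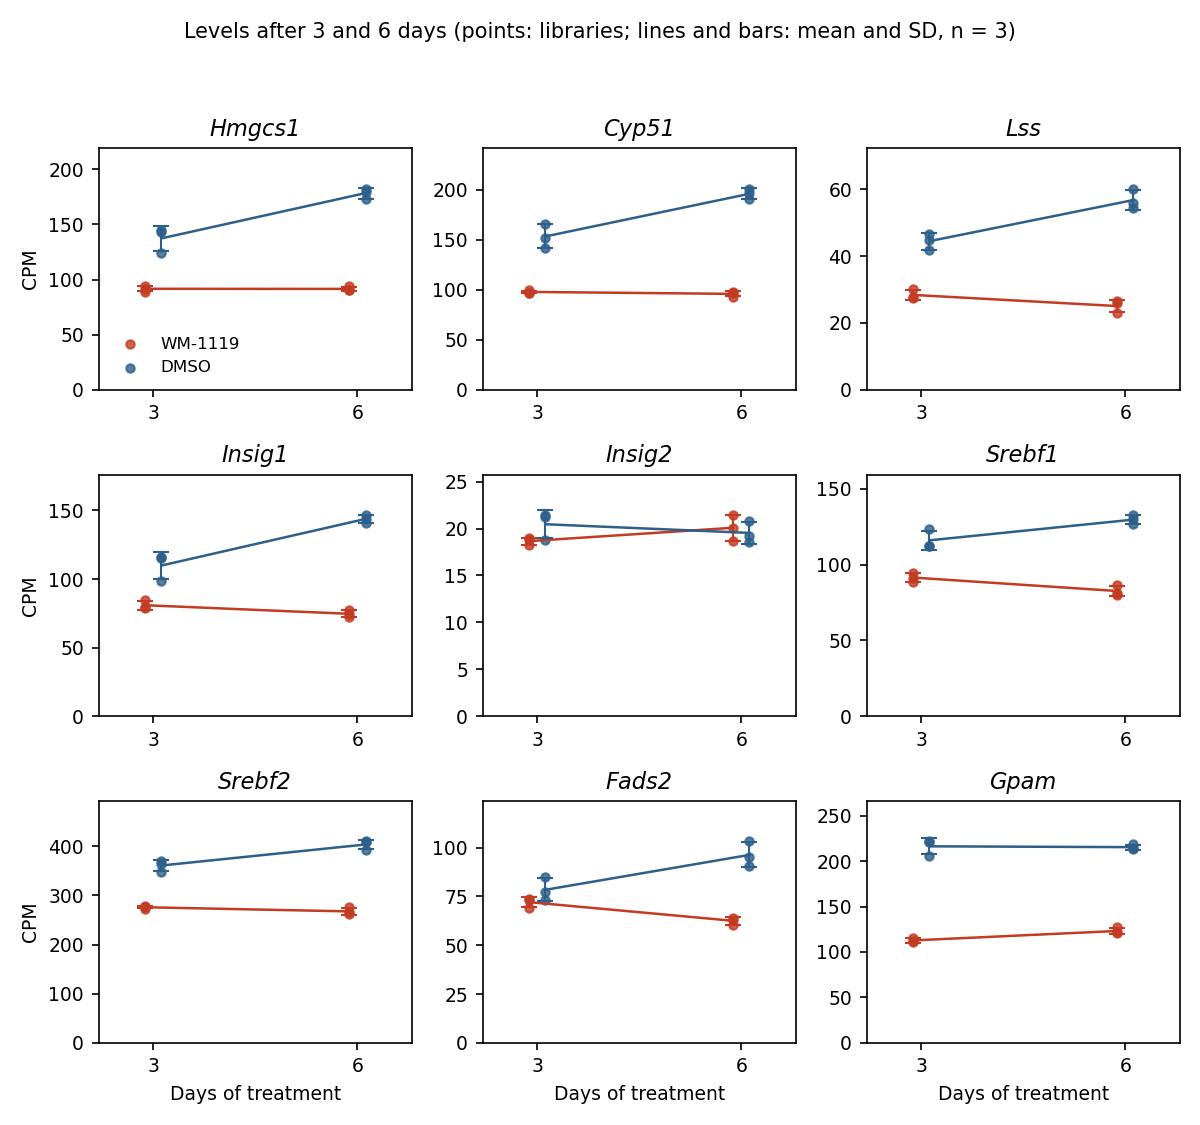
CPM of 9 genes after 3 and 6 days, with WM-1119 in red and DMSO in blue, points for libraries, and lines and bars for the mean and SD of 3 libraries. The DMSO level of Hmgcs1, Cyp51, Lss and Insig1 is higher at 6 than at 3 days while the WM-1119 level is nearly flat for Hmgcs1 and Cyp51 and somewhat lower for Lss and Insig1, the lines of Insig2 cross, and Gpam is flat in both.

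These comparisons share libraries: the same DMSO libraries enter the WM-1119 effects and the DMSO change between times, so the changes are not independent of the differences. Time in culture cannot be told apart from any other difference between the libraries of the 2 times, and the labels name no batch. DMSO 3 days replicate 3 was the lowest of its group in 25 of the 37 genes, while over all genes this library was the lowest in 34.5%. Without it, 7 of the 37 were called for the difference and 8 for the DMSO change. The count of 13 was 7 without WM-1119 3 days replicate 2, 6 without WM-1119 3 days replicate 3, 8 without WM-1119 6 days replicate 1, 7 without WM-1119 6 days replicate 3, 7 without DMSO 6 days replicate 1 and 8 without DMSO 6 days replicate 2. The count of 14 was 9 without DMSO 3 days replicate 1. Without the 5 libraries with Col1a1, which leaves 1 library in each group of 6 days, edgeR called 0 of the 37 for the difference, with 16 at an unadjusted p below 0.05, all more negative at 6 days. The median difference of the 37 was then -0.25, against -0.27 with all libraries. With all 12 libraries limma voom called 8 and DESeq2 14. Insig1, Fads2, Lss and Cyp51 were called under every other alternative run. The call of Lpin1 between the times in WM-1119 was lost without WM-1119 3 days replicate 2 (adjusted p = 0.0574), WM-1119 3 days replicate 3 (adjusted p = 0.0521) or WM-1119 6 days replicate 2 (adjusted p = 0.075). That of Tm7sf2 was lost without WM-1119 6 days replicate 1 (adjusted p = 0.0503).

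Expressed per length, as RPKM from the exon lengths of the deposited table, the genes spanned a wide range in DMSO of 6 days. Acly stood highest at 131 RPKM, before Srebf2 at 88.3, Tmem97 at 77.7, Sqle at 64.0 and Fads2 and Fdps at 63.8 each. Tm7sf2 at 2.82 RPKM, Lpin1 at 2.09 RPKM and Me1 at 0.0128 RPKM stood lowest. Genes called at neither time were thus found at both ends of this order, with Acly at the top and Tm7sf2 near the bottom.

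Other lipid pathways, taken as 7 lists with 94 tested genes, had calls in both directions. At 3 days 20 of the 94 were lower (21.3%, against 12.6% of all genes) and 13 higher (13.8%, against 11.8%). At 6 days 21 were lower (22.3%, against 15.1% of all genes) and 18 higher (19.1%, against 15.7%), with a median log2 fold change of -0.025 at 6 days. The 3 day count of 20 lower genes was 10 without WM-1119 3 days replicate 2 and 12 without WM-1119 3 days replicate 3. With those 5 Col1a1 libraries left out, which leaves 1 library in each group of 6 days, fewer of the 94 were called. Fewer of all genes were called there too. The background shares above are those of the fit with all 12 libraries. They apply to the counts of that fit in each list named next. Fatty acid elongation and activation was the list most like the synthesis genes, with 8 of 15 lower at 3 days, 9 of 15 lower at 6 days and 0 higher at either time (edgeR). Their median log2 fold change was -0.129 at 3 days and -0.199 at 6 days. In the fit without the 5 Col1a1 libraries it was -0.136 and -0.221, and fewer of the 15 were called lower at each time. Acsl3, which activates fatty acids at the endoplasmic reticulum and lipid droplets, had 47.4, 44.7 and 43.0 CPM with WM-1119 at 6 days, against 84.5, 81.7 and 90.0 CPM with DMSO. The groups of Acsl3 were far apart, and its log2 fold change was -0.54 ± 0.06 at 3 days and -0.92 ± 0.06 at 6 days (edgeR adjusted p = 3.61e-07 and 5.84e-11). Elovl4, an elongase for very long chains, had values of -0.82 and -1.27 (adjusted p = 1.89e-05 and 3.04e-08).

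Branches that use mevalonate for purposes other than sterols had calls near the share of all genes at 3 days and fewer at 6 days. Of all genes, 12.6% were lower and 11.8% higher at 3 days, and 15.1% and 15.7% at 6 days. Of 12 genes of the isoprenoid branches (prenylation, dolichol and ubiquinone), 2 were lower and 1 higher at 3 days, and 1 was lower and 0 higher at 6 days (edgeR). That gene was Rabggtb, a subunit of the enzyme that prenylates Rab proteins (-0.28 at 6 days, adjusted p = 0.000483), and Icmt, which methylates prenylated proteins, came next (-0.12, adjusted p = 0.0742). Of 11 genes that cleave SREBP or degrade sterol enzymes, 1 was lower and 1 higher at 3 days, and 0 were lower and 2 higher at 6 days (edgeR). The 2 were Erlin1 (0.26, adjusted p = 0.00491) and Ubxn6 (0.15, adjusted p = 0.0343). The call of Ubxn6 was lost without WM-1119 6 days replicate 1 (adjusted p = 0.153), replicate 2 (0.0718) or replicate 3 (0.0673), without DMSO 6 days replicate 1 (0.116) or replicate 2 (0.0689), with no filter on low counts, with thinning and without the 5 libraries with Col1a1 (0.608). Of 5 tested genes of sterol efflux and its regulators, 1 was lower at 3 days, and 2 were lower and 1 higher at 6 days. The sterol exporter Abcg1 was lower at both times (-0.40 and -0.53, adjusted p = 0.00116 and 5.59e-05), and the receptor gene Nr1h2 was higher at 6 days (0.16, adjusted p = 0.00737). The call of Nr1h2 was lost without WM-1119 6 days replicate 2 (adjusted p = 0.0601). Without the 5 libraries with Col1a1, which leaves 1 library in each group of 6 days, the 6 day calls of Nr1h2, Abcg1 and Rabggtb were lost. Their log2 fold changes were then 0.146, -0.363 and -0.254.

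Sterol transport and esterification held 3 lower and 4 higher of 12 at 3 days, and 2 lower and 4 higher at 6 days. All genes had 12.6% lower and 11.8% higher at 3 days, and 15.1% and 15.7% at 6 days. Scp2, a sterol carrier, had log2 fold changes of 0.36 and 0.45 (edgeR adjusted p = 0.00011 and 4.84e-06). Lipa, the lysosomal lipase that frees cholesterol from its esters, had 0.29 and 0.49 (adjusted p = 2.22e-05 at 6 days). Of 20 genes of phospholipid and triglyceride synthesis, 4 were lower and 3 higher at 3 days, and 6 were lower and 3 higher at 6 days. Gpat3, a glycerol phosphate acyltransferase of the endoplasmic reticulum, was higher at 6 days (0.54, edgeR adjusted p = 7.72e-07), whereas its mitochondrial counterpart Gpam was lower. Pcyt2, of phosphatidylethanolamine synthesis, was lower at 6 days (-0.52, adjusted p = 4.92e-06). The median log2 fold change at 6 days was 0.010 for sterol transport and -0.046 for phospholipid and triglyceride synthesis. With those 5 Col1a1 libraries left out, it was 0.048 and 0.018, with 1 library left in each group of 6 days. Fewer genes of each of these lists were called there at 6 days. The 6 day calls of Scp2, Lipa and Pcyt2 were then lost, with log2 fold changes of 0.281, 0.332 and -0.268.

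**Figure D4:**
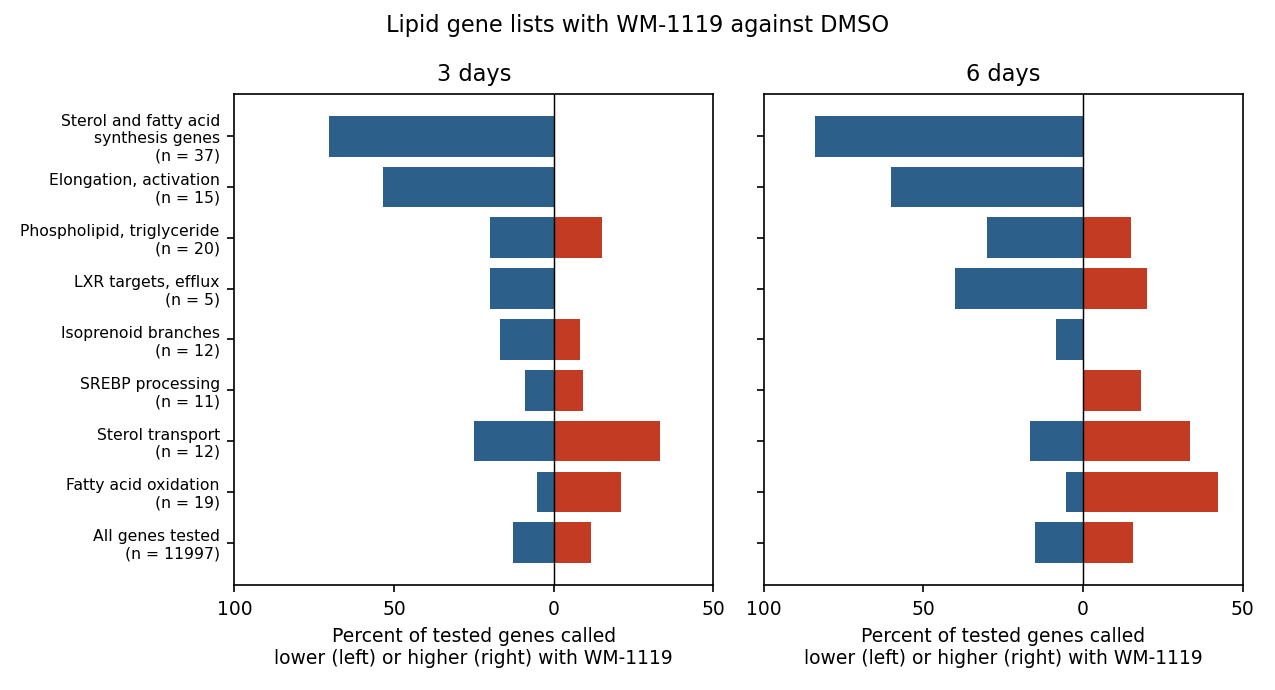
Percent of the tested genes of each lipid list called lower (blue, left) or higher (red, right) with WM-1119 against DMSO at 3 days and 6 days, with the 37 synthesis genes on top and all 11997 genes at the bottom. The synthesis genes have bars to the left only, of 70.3% and 83.8%, while fatty acid oxidation has its longer bars to the right.

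Of 8 macrophage markers 4 were tested, and they went both ways with WM-1119. Csf1r, the receptor for a macrophage growth factor, rose by 2.14 at 3 days and by 2.25 at 6 days on the log2 scale (edgeR adjusted p = 1.11e-07 and 3.08e-08). Mrc1, the mannose receptor, fell by 1.02 and by 0.88 (adjusted p = 3.91e-10 and 2.03e-09). Itgam, an integrin subunit, was lower at 3 days (-0.14, adjusted p = 0.0281) and not called at 6 days (0.10, adjusted p = 0.1), and Cd68 was called at neither time. The complement genes C1qa and C1qb had no count in any library. The summed level of the 8 was 139 to 142 CPM with WM-1119 and 176 to 180 CPM with DMSO at 3 days, and 160 to 161 CPM with WM-1119 and 173 to 178 CPM with DMSO at 6 days. T cell markers summed to between 4.92 and 6.88 CPM over all libraries. The part of these levels in the results was not tested.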

How the data were processed

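The deposited table holds whole-number read counts per gene, which the authors made with featureCounts on the mouse build mm10, per the submitters' processing notes. No source used here gives the version, the aligner, the strand setting or the treatment of reads with several matches. Per the labels, the kits were RNeasy for RNA and a stranded TruSeq one for poly(A) libraries. Among 27179 entries, 874 without an identifier were dropped, 0.305% to 0.362% of each library. Symbols and positions came from the RefSeq table of the same build.

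Counts were scaled by TMM, filtered with filterByExpr by group, and fitted over all 12 libraries with 4 group means by edgeR's quasi-likelihood test (edgeR 4.0.16, limma 3.58.1, R 4.3.3). Fold changes carry standard errors, and levels the SD. Two-sided p-values were adjusted over the 11997 genes (Benjamini-Hochberg), and 0.05 was the threshold. CPM scale each count to a fixed library total after TMM. RPKM divide these by the exon length in the deposited table (another kind of value, in bases). The common biological coefficient of variation was 5.69%. The series calls the libraries biological replicates and names no batch. Counts of libraries of a group differed by more than sampling noise.

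Genes were named in full by rule. In each role group these were the 3 with the smallest p for the WM-1119 effect averaged over both times. Added were the 3 most negative at 6 days and the 3 with the smallest p for the difference. The genes called at neither time were also named, as were Insig1, Insig2, Srebf1 and Srebf2. In each other lipid list the 2 genes with the smallest p at 6 days were named. Further oxidation genes were named after their values were seen, and the remaining synthesis genes are given by fold change. The genes and lists were chosen with earlier results of these data known. Scaling by RLE or upper quartile, filtering at 1 CPM in 3 libraries or not at all, DESeq2 1.42.0 and voom, blocking on the replicate number, thinning every library to 14691369 counts, fitting only the groups compared, dropping the Col1a1 libraries, and dropping each library in turn were the alternatives. Deviations of same-numbered libraries of WM-1119 and DMSO correlated across genes at 0.204 to 0.237 at 6 days and at -0.026 to 0.064 at 3 days. Between WM-1119 and DMSO libraries of 6 days with unlike numbers it was -0.158 to -0.034. The numbers may thus pair the samples of 6 days. A value of 0.262 also occurred between WM-1119 3 days replicate 3 and DMSO 6 days replicate 2, which share neither number nor time. The main fit took no pairing, and blocks on the replicate number were run as alternatives only. The labels name no pairing.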

Additional observations from a re-analysis of the deposited data

Results flagged for a closer look

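These results were marked because the WM-1119 effect differed between 3 and 6 days in the edgeR test of the difference itself (adjusted p below 0.05). Values are the log2 effect at 6 days minus that at 3 days. Among the sterol enzymes this was -0.44 for Acat2, -0.38 for Hmgcs1, -0.54 for Mvd, -0.50 for Fdps, -0.53 for Lss, -0.38 for Cyp51, -0.48 for Msmo1 and -0.41 for Sc5d. In the SREBP system it was -0.50 for Insig1 and -0.31 for Srebf1. Among the elongases and desaturases it was -0.29 for Elovl6, -0.36 for Fads1 and -0.50 for Fads2. Outside the synthesis genes it was -0.38 for Acsl3 and 0.45 for Cpt1a. Adjusted p-values ran from 0.00233 (Insig1) to 0.0388 (Srebf1). For the synthesis genes, the dependence of these calls on single libraries is given with the comparison of the times. For Acsl3 and Cpt1a it was not examined.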

How the results depend on the processing

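Of 1665 recomputed fold changes of the synthesis genes at 3 and 6 days, 8 changed sign, 27 lost a call and 11 gained one. These are log2 values. Calls were lost for 5 genes at 3 days (Mvk, Stard4, Acss2, Aacs, Fads1) and 2 at 6 days (Mvk, Mmab). No changed sign concerned a called value. Over the settings that leave out 1 library, the log2 fold change ran from -0.042 to 0.05 for Ebp, -0.192 to 0.025 for Fasn and -0.007 to 0.052 for Nr1h2 at 3 days, and from -0.049 to 0.359 for Tm7sf2 and -0.023 to 0.083 for Insig2 at 6 days. With those 5 Col1a1 libraries left out, Ebp was -0.001 at 3 days and Insig2 -0.053 at 6 days.

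Leaving out each library in turn gave 23 to 28 lower and 0 to 1 higher synthesis genes at 3 days, 30 to 32 lower and 0 higher at 6 days, 6 to 14 for the difference, 8 to 13 for the DMSO change between times and 1 to 4 for the WM-1119 change. The other lipid lists had 10 to 20 lower and 11 to 14 higher at 3 days, and 18 to 22 lower and 14 to 19 higher at 6 days. Over all genes the ranges were 1131 to 1683 lower and 1036 to 1566 higher at 3 days, 1397 to 1884 lower and 1526 to 1923 higher at 6 days, 46 to 217 (from 87) for the difference and 41 to 158 (from 97) for the DMSO change.

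Without the 5 libraries with Col1a1, the counts were 1 synthesis gene higher at 3 days and 1 at 6 days, 0 for the difference, 9 (8 higher, 1 lower) for the DMSO change and 1 for the WM-1119 change. The other lists then had 12 lower at 3 days, and 8 lower and 8 higher at 6 days. All genes had 713 lower and 803 higher at 6 days, 5 for the difference and 537 for the DMSO change. This setting leaves 1 library in each group of 6 days, which is assumed to vary like the other groups. Fitting only the groups compared gave 1 synthesis gene higher at 3 days, 9 for the DMSO change, 4 for the WM-1119 change and 47 of all genes for the DMSO change. Thinning gave 1 higher at 3 days and 4 for the WM-1119 change. No filter on low counts gave 1 higher at 3 days and 173 of all genes for the DMSO change. Upper-quartile scaling gave 5 for the WM-1119 change and 13 lower genes of the other lists at 3 days. Limma voom gave 8 for the difference, and DESeq2 171 of all genes for the DMSO change. Apart from the construction of the smaller fits, the cause was not tested.

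With the replicate number as a block, 26 synthesis genes were lower at 3 days and 31 at 6 days, with no call changed, 14 were called for the difference and 17 for the DMSO change, and 167 of all genes for the DMSO change. A block within the libraries of 6 days alone, added after seeing the data, gave 31 lower and 0 higher. With 3 libraries per group an exact permutation test cannot go below p = 0.1, so single genes rest on the shared fit. Genes at few reads, such as Tm7sf2, Lpin1 and Acss2, are the least precise.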

Other observations

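Fatty acid oxidation, the list that breaks down what the synthesis genes make, moved the other way for part of its genes. Of 19 tested genes, 4 were higher and 1 lower with WM-1119 at 3 days, and 8 were higher and 1 lower at 6 days (edgeR, adjusted p below 0.05). The median log2 fold change was 0.003 at 3 days and 0.12 at 6 days. The 8 were Cpt1a, Cpt2, Slc25a20, Acadl, Decr1, Eci1, Etfb and Etfdh, and the lower one was Hadhb, a subunit of the mitochondrial trifunctional protein. Over all genes 11.8% were called higher at 3 days and 15.7% at 6 days. With those 5 Col1a1 libraries left out, the median log2 fold change of the oxidation genes was 0.016 at 3 days and 0.087 at 6 days. That fit leaves 1 library in each group of 6 days. Fewer of the 19 were called higher there at 6 days, and the call of Hadhb was lost.

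Cpt1a, which admits long fatty acids to mitochondria, had 119, 127 and 124 CPM with WM-1119 at 3 days, against 86.3, 84.6 and 99.3 CPM with DMSO. At 6 days it had 159, 155 and 156 CPM with WM-1119, against 83.3, 84.9 and 83.2 CPM with DMSO. Here the treated level was higher at 6 than at 3 days, and the DMSO level was not. Cpt1a rose by 0.46 ± 0.05 at 3 days and by 0.90 ± 0.05 at 6 days on the log2 scale (edgeR adjusted p = 1.09e-06 and 1.94e-11). Slc25a20, which carries acylcarnitines across the inner membrane, had 23.2, 23.9 and 24.4 CPM with WM-1119 at 6 days, against 12.5, 12.8 and 13.5 CPM with DMSO. It rose by 0.54 at 3 days and by 0.89 ± 0.08 at 6 days (edgeR adjusted p = 1.83e-05 and 6.05e-09).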
